A study of Mus musculus with 313 samples.

Results

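Zbtb16, Zbtb7b, Cd4 and Lat are 4 of the 100 genes whose transcripts were assayed in single lymphoid precursor cells of the mouse fetal liver. They were chosen by name, because each belongs to the transcription factors, surface receptors or signalling proteins of T cells and their innate relatives. Zbtb16 and Zbtb7b encode PLZF and ThPOK, transcription factors with a BTB domain and zinc fingers. Cd4 encodes the coreceptor for MHC class II, and Lat encodes the membrane adaptor that links the antigen receptor to its downstream kinases and phospholipase.

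The cells came from pooled fetal livers at embryonic day 15 and were lineage-negative and positive for IL7Rα and the integrin α4β7. Those with neither PLZF nor CXCR5 protein were α4β7+ lymphoid precursors (aLP), PLZF+ cells were innate lymphoid cell precursors (ILCP), and PLZF- CXCR5+ cells were lymphoid tissue inducer precursors (LTiP). No label names a strain, reporter allele or treatment. Each cell name carries the number 2 or 3, taken here as its sort, and the cells of 1 group and 1 sort form a pool: aLP sort 2 (54 cells), aLP sort 3 (92 cells), ILCP sort 2 (62 cells), ILCP sort 3 (90 cells) and LTiP sort 3 (14 cells). The pool, not the cell, was the replicate, so aLP and ILCP had 2 pools each and LTiP had 1.

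In the thymus and in innate-like T cells PLZF drives an effector program, and in the fetal liver it marks precursors of innate lymphoid cells. ThPOK commits thymocytes to the helper lineage, where it keeps Cd4 expressed, and Cd4 is also found on many lymphoid tissue inducer cells of the mouse. LAT is needed for antigen receptor signalling in T cells and is also made in mast cells, natural killer cells and platelets.

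Each value is a Ct, the PCR cycle at which an assay's fluorescence crosses a threshold, so an earlier Ct means more cDNA on a scale close to log2. A Ct below 24 was taken as detection of the gene in that cell. Pools differed in how much was detected: a cell gave on average 28.2 to 32.2 assays in aLP, 40.7 to 40.8 in ILCP and 33.6 in LTiP. Mean Ct of the housekeeping gene Hprt was 16.9 and 17.6 in aLP, 16.2 and 16.3 in ILCP and 17.7 in LTiP. Fewer detecting cells and less cDNA per cell are therefore given separately below. Of marker lists for other cell types, Lck, a proximal T-cell kinase, was the 1 of 6 T-cell markers on the panel and was detected in 9.78% to 27.8% of aLP and ILCP cells. Itga2b, 1 of 3 megakaryocyte markers, marked 22.6% and 34.4% of the cells in the ILCP pools, 1.85% and 1.09% of aLP cells and 0 of 14 LTiP cells. The B-lineage markers Pax5 and Ebf1 together marked 0% to 2.2% of cells in every pool. Irf8, of the 7 myeloid and dendritic markers, marked 33.3% to 79.3%, and neither mast-cell marker was on the panel.

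The 4 genes were detected at very different frequencies. Of all 312 cells 53.2% detected Zbtb16, while Lat was detected in 79 (25.3%), Zbtb7b in 34 (10.9%) and Cd4 in 31 (9.94%). No cell detected all 4. Of the aLP cells 33 of 54 in sort 2 and 69 of 92 in sort 3 detected none, whereas 3 of 62 and 2 of 90 ILCP cells did so. The commonest pattern after Zbtb16 alone in ILCP cells was Zbtb16 with Lat, in 21 cells (33.9%) of sort 2 and 30 cells (33.3%) of sort 3. Every LTiP cell detected between 1 and 3 of the genes.

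**Figure D1:**
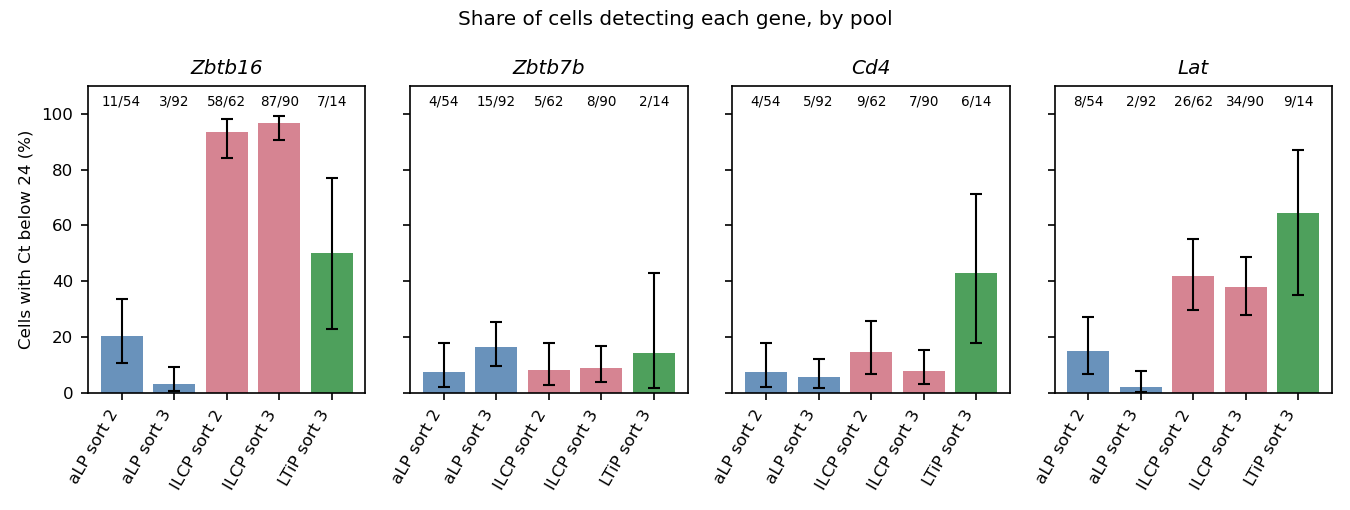
Percent of cells with a Ct below 24 for each gene (y axis) in the 5 pools (x axis), as bars with exact 95% binomial intervals and the number of detecting over all cells above each bar. Zbtb16 stands above 90% in both ILCP pools, Zbtb7b below 20% in all 5 pools, Cd4 highest in LTiP, and Lat lower in both aLP pools than in the ILCP and LTiP pools.

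Zbtb16 was the gene of the sort gate, so its pattern checks the labels and is not a finding. It was detected in 11 of 54 aLP cells of sort 2 (20.4%, exact Clopper-Pearson 95% interval 10.6 to 33.5) and 3 of 92 of sort 3 (3.3%, 0.678 to 9.23). In ILCP it was detected in 58 of 62 cells (93.5%, 84.3 to 98.2) and 87 of 90 cells (96.7%, 90.6 to 99.3). The transcript thus followed the PLZF gate in both sorts, with 7 ILCP cells below detection. In LTiP cells, sorted as PLZF-, Zbtb16 was detected in 7 of 14 (50.0%, 23.0 to 77). This was 46.7 points above aLP cells of the same sort (Newcombe 95% interval 22.8 to 70), and the difference from ILCP cells was -46.7 points (-70 to -22.7). The exact interval of LTiP lay above that of aLP for 19.6% of 97 assays and below it for 3.09%, and above that of ILCP for 6.19% and below it for 13.4%. All such intervals cover counting error among cells only.

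Where Zbtb16 was detected in cells gated as PLZF-, its median Ct was later than in ILCP cells. In ILCP the median Ct of detecting cells was 15.9 in sort 2 (range 13.2 to 23.0) and 15.3 in sort 3 (13.4 to 19.3). In aLP it was 17.5 (16.2 to 23.4) and 18.4 (16 to 19.3), and in LTiP 17.7 (16.7 to 22.4). None of the 11 and 3 detecting aLP cells or of the 7 detecting LTiP cells had a Ct earlier than the ILCP median of its sort, although 9, 2 and 6 of them lay within the ILCP range. Mean Ct in detecting cells was 15.85 in ILCP and 18.26 in aLP (difference -2.40 ± 0.42 SE, n = 2 pools each; limma, adjusted p = 0.0155), the only Ct difference called among 60 tested assays, so that 1.67% were called earlier in ILCP and 0% later. Both ILCP pools had an earlier mean Ct than both aLP pools for 40% of assays and a later one for 3.33%. With each Ct taken relative to Actb, Gapdh and Hprt of the cell the difference was -1.34 and was not called (limma, adjusted p = 0.627). Without the aLP pool of sort 3 or the ILCP pool of sort 2 or 3 it was -2.75, -2.53 and -2.28, with limma adjusted p of 0.0561, 0.0539 and 0.0952.

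**Figure D2:**
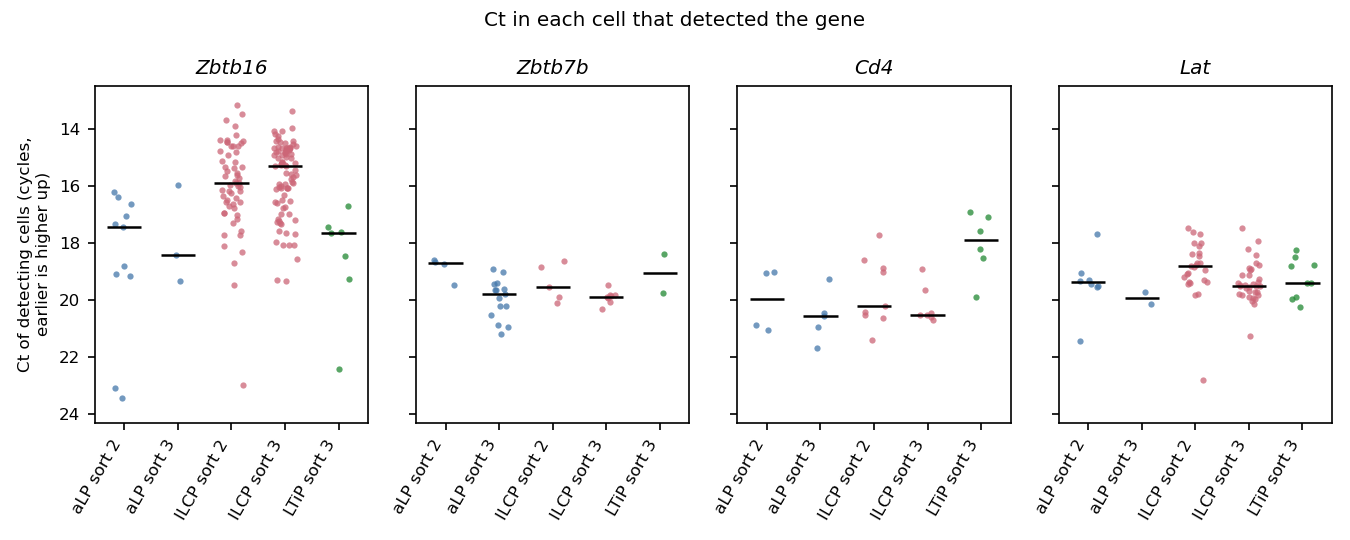
Ct in cycles (y axis, reversed so that earlier and more abundant lies higher) of each cell that detected the gene, by pool (x axis), with the pool median as a black line. Zbtb16 is earliest in ILCP (medians 15.9 and 15.3), Cd4 is earliest in LTiP (median 17.9), and Lat lies near the same Ct in every pool.

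The level of a pool was the mean over all its cells of 24 minus Ct, counting 0 where the gene was not detected, so it combines how many cells detected the gene with how much each held. The Zbtb16 level was 1.10 and 0.20 in the aLP pools and 7.51 and 8.0 in the ILCP pools, and the difference of 7.10 ± 0.43 (SE) was the largest of the 91 tested assays (limma, adjusted p = 0.00615). In this comparison 5.49% of tested assays were called higher and 1.10% lower in ILCP. Both ILCP pools lay above both aLP pools for 57.1% of assays and below them for 11%, with a median difference of 0.54. A gene's separation of pools must be read against that large background. Without the ILCP pool of sort 2 or of sort 3 the Zbtb16 difference was 7.35 and 6.86 and did not pass (limma, adjusted p = 0.112 and 0.110).

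**Figure D3:**
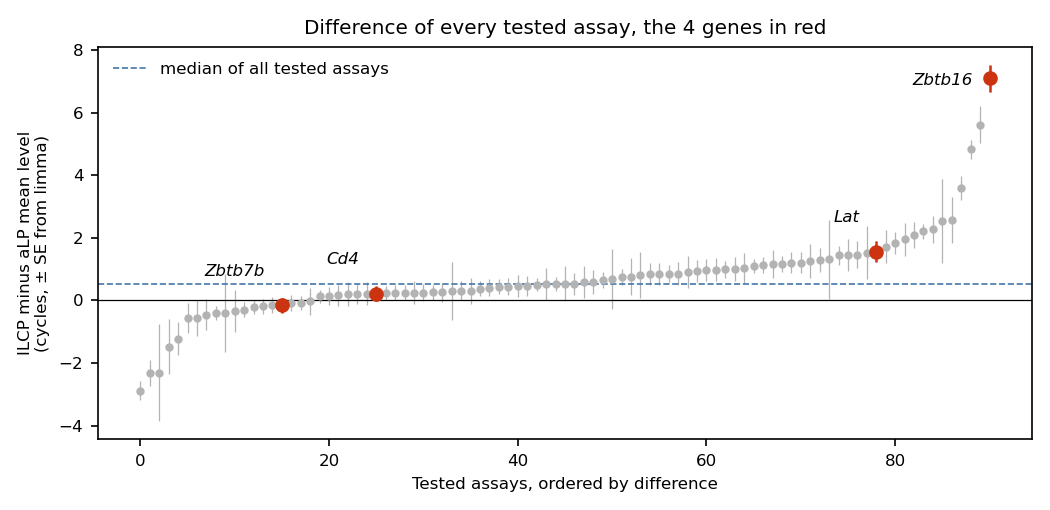
ILCP minus aLP difference of the mean level in cycles (y axis, bars are limma standard errors, 2 pools per group) for the 91 tested assays in order of their difference (x axis), with the 4 genes in red and the median of 0.54 dashed. Zbtb16 is last in the order, Lat is 13th from the top at 1.56, and Cd4 (0.22) and Zbtb7b (-0.15) lie below the median.

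Zbtb7b, the gene of the helper-lineage factor ThPOK, was rare in every precursor. It was detected in 4 of 54 aLP cells of sort 2 (7.41%, 2.06 to 17.9) and 15 of 92 of sort 3 (16.3%, 9.42 to 25.5). In ILCP it was detected in 5 of 62 cells (8.06%, 2.67 to 17.8) and 8 of 90 cells (8.89%, 3.9 to 16.8), and in LTiP in 2 of 14 (14.3%, 1.78 to 42.8). The intervals of all 5 pools overlapped. Detecting cells had median Ct values of 18.7 and 19.8 in aLP, 19.6 and 19.9 in ILCP and 19.1 in LTiP, within the range of 18.4 to 21.2 over all pools. The level difference between ILCP and aLP was -0.15 ± 0.24 (SE), with -0.01 in sort 2 and -0.29 in sort 3, and did not pass (limma, adjusted p = 0.652). The pool levels were 0.38 and 0.66 in aLP and 0.37 and 0.36 in ILCP. They did not overlap, as in the 11% of assays with both ILCP pools below both aLP pools, but came within 0.01 of each other in sort 2. The Ct difference in detecting cells was 0.23 ± 0.47 (SE; limma, adjusted p = 0.912).

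The higher aLP share of sort 3 came with the number a cell carried in its name. Among aLP cells numbered 1 to 96, 8 of 24 (33.3%, 15.6 to 55.3) detected Zbtb7b, and among those numbered 97 or higher 7 of 68 did (10.3%, 4.24 to 20.1). All aLP cells of sort 2 were numbered 97 or higher. What the number stands for is not given in the labels, and its part in the result was not tested. LTiP cells, all numbered 1 to 96, differed from aLP cells of sort 3 in Zbtb7b share by -2.02 points (Newcombe interval -15.6 to 24.4), and by -19 points from those with the same number range.

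The closely related gene Zbtb7a, which encodes the BTB zinc finger factor LRF, was found in most cells. Shares ran from 81.5% (aLP sort 2) to 98.9% (ILCP sort 3), with 92.9% in LTiP. Of 11 BTB zinc finger genes listed, 3 were on the panel. Of these Zbtb16, the gene of the gate, alone passed the level test, where 5.49% of all tested assays were called higher. Zbtb7c, a BTB zinc finger gene on the panel but not on that list, was detected in 0% of aLP and ILCP cells. Zbtb7a gave a level difference of 0.65 ± 0.26 (SE; limma, adjusted p = 0.191).

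Cd4 was detected most often and most strongly in LTiP cells. In the aLP pools 4 of 54 and 5 of 92 cells detected it (7.41%, 2.06 to 17.9, and 5.43%, 1.79 to 12.2). In the ILCP pools 9 of 62 and 7 of 90 did (14.5%, 6.86 to 25.8, and 7.78%, 3.2 to 15.4), and in LTiP in 6 of 14 (42.9%, 17.7 to 71.1). The LTiP interval lay above those of both other pools of sort 3, as was the case for 19.6% and 6.19% of assays, given above. The difference of shares was 37.4 points against aLP (Newcombe interval 14.9 to 62.2) and 35.1 points against ILCP (12.4 to 59.9).

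The 6 LTiP cells that detected Cd4 had Ct values between 16.9 and 19.9 with a median of 17.9. Medians elsewhere were 20 and 20.6 in aLP and 20.2 and 20.5 in ILCP. In 5 of the 6 the Ct was earlier than that of every Cd4-detecting aLP or ILCP cell of sort 3, and 1 of the 25 Cd4-detecting cells outside LTiP was earlier than the LTiP median. The mean Ct differed from that of aLP cells of sort 3 by -2.55 cycles and from that of ILCP cells by -2.2. Relative to the housekeeping genes of the same cells the mean Cd4 Ct was 2.43 in LTiP, 4.97 in aLP and 5.10 in ILCP of sort 3. The mean housekeeping Ct of these 6, 5 and 7 cells was 15.6, 15.6 and 15.1. The part of the cDNA amount was not tested.

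LTiP had 1 pool, so its differences have no replicate check and no test here. Between ILCP and aLP the Cd4 level differed by 0.22 ± 0.25 (SE; 0.33 in sort 2, 0.11 in sort 3) and did not pass (limma, adjusted p = 0.551). The Ct of detecting cells differed by -0.34 ± 0.42 (limma, adjusted p = 0.828). Among cells numbered 1 to 96 in sort 3, Cd4 was detected in 0 of 24 aLP and 0 of 19 ILCP cells (exact intervals up to 14.2% and 17.6%).

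Other genes of lymphoid tissue induction were also detected in larger shares of LTiP cells. Of a list of 13 such genes 10 were on the panel, and 9 were detected in a larger share of LTiP cells than of aLP cells of sort 3, with a median difference of 31.1 points against 0 for all assays. Against ILCP 8 of the 10 were above, with a median of 28.6 points against -5.24 for all assays. The list holds Cd4 itself and Cxcr5, the gene of the gate. Without them 7 of 8 were above aLP, with a median of 25.3 points, and 6 of 8 above ILCP, with a median of 25.5 points. Lta, a lymphotoxin gene, was detected in 9 of 14 LTiP cells, against 4.35% to 27.4% elsewhere. Within LTiP it was found in 3 of 6 cells with Cd4 and 6 of 8 without. Between ILCP and aLP 8 of these genes were tested with a median of 0.43, and none was called (limma). An unadjusted p under 0.05 was found for 2 of them, Cxcr5 and Ahr, and for 27 of all 91 tested assays (limma). The aLP cells had been gated as lacking CXCR5.

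Lat, the adaptor gene, was found in a larger share of ILCP and LTiP cells than of aLP cells. It was detected in 8 of 54 aLP cells of sort 2 (14.8%, 6.62 to 27.1) and 2 of 92 of sort 3 (2.2%, 0.264 to 7.63). In ILCP it was detected in 26 of 62 cells (41.9%, 29.5 to 55.2) and 34 of 90 cells (37.8%, 27.8 to 48.6), and in LTiP in 9 of 14 (64.3%, 35.1 to 87.2). Both ILCP pools and the LTiP pool thus lay above both aLP pools. The mean level was 0.68 and 0.09 in aLP (0.38 ± 0.42 SD, n = 2) and 2.1 and 1.75 in ILCP (1.94 ± 0.27 SD, n = 2). The difference of 1.56 ± 0.34 (SE), 1.46 in sort 2 and 1.66 in sort 3, was the 13th largest of 91 but did not pass adjustment (limma, p = 0.0108, adjusted p = 0.0702). Its pools were among the 57.1% of assays with both ILCP pools above both aLP pools. As each pool was left out in turn the difference ran from 1.26 to 1.86. It was smallest without the aLP pool of sort 3 and largest without that of sort 2, the aLP pool with the higher level.

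The amount of Lat in detecting cells overlapped between the groups. Median Ct in detecting cells was 19.4 (17.7 to 21.4) and 19.9 (19.7 to 20.2) in aLP, 18.8 (17.5 to 22.8) and 19.5 (17.5 to 21.3) in ILCP, and 19.4 (18.2 to 20.3) in LTiP. The aLP range of sort 3, from 2 cells, lay inside those of ILCP and LTiP. The Ct in detecting cells had no test, because of that small number. No Lat Ct lay at or above the limit of 24.

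The number of assays detected, the cell number and Itga2b were set beside the Lat result. In aLP, cells with Lat detected more of the other assays than cells without (38.9 against 30.8 in sort 2, 34 against 28.1 in sort 3), while in ILCP the numbers were 41.3 against 39.6 and 40.9 against 40.1. Among ILCP cells of sort 2 Lat was detected in 18 of 52 numbered 1 to 96 (34.6%) and in 8 of 10 numbered 97 or higher (80%), whereas in sort 3 it was 57.9% and 32.4%. Restricting both sorts to the higher numbers gave a level difference of 2.50 (limma, adjusted p = 0.261), and restricting sort 2 alone 2.63 (adjusted p = 0.207). The part of these in the result was not tested. Itga2b was found in 18 of 60 ILCP cells with Lat and 27 of 92 without. After leaving out all Itga2b-detecting cells the Lat share was 45.8% and 33.9% in ILCP and 13.2% and 2.20% in aLP, and the level difference was 1.62 (limma, adjusted p = 0.110).

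In LTiP cells the Lat share exceeded that of aLP cells of sort 3 by 62.1 points (Newcombe interval 36 to 81.5) and that of ILCP cells by 26.5 points (-1.02 to 48.0). The second interval includes 0. With ILCP cells numbered 1 to 96, the range of the LTiP cells, the difference was 6.39 points.

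The sequence around the Lat start site is shown because Lat had the largest ILCP and aLP difference of the 3 genes that were not part of the gate. It spans 250 bases before to 50 bases after the start, at chr7:126369519-126369818 on the minus strand of GRCm38.p6, from RefSeq, read 5′ to 3′. The capitals mark 2 matches to the Ets core CAGGAA, both on the opposite strand as TTCCTG, and 1 match to the Runx core TGTGGT, on the opposite strand as ACCACA.
Lat: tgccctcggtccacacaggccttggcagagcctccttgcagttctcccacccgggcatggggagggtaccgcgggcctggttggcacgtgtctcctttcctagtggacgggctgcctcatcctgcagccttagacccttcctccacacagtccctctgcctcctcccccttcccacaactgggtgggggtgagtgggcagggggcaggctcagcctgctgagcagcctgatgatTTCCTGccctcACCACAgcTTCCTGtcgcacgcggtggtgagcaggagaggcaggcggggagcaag
The Ets matches begin 16 bases before and 4 bases after the start site, and the Runx match begins 5 bases before it. Both strands were searched, and the matches do not overlap. Of 32851 start-site windows of that length in the mouse table, 30.6% hold the Ets core and 16.8% the Runx core. The Tcf/Lef core CTTTGA, held by 16% of windows, and the Gata core AGATAA, held by 11.2%, had 0 matches. A match describes letters only and is not evidence of binding.

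Whether Zbtb7b followed Cd4 was examined cell by cell. Both were detected in 3 cells, where independent detection within the pools would give 3.3. Of the 31 Cd4-detecting cells 3 (9.68%) had Zbtb7b, as had 31 of the others (11%). In aLP sort 2 Zbtb7b was detected in 1 of 4 cells with Cd4 and 6.0% of cells without, and in ILCP sort 2 in 2 of 9 and 5.66%. In sort 3 none of the 5 aLP, 7 ILCP and 6 LTiP cells with Cd4 had Zbtb7b. The difference of shares averaged -3.26 ± 20 points (SD over 5 pools) and was positive in both pools of sort 2 and negative in the 3 pools of sort 3. Its sign turned with 1 pool left out, from -8.83 without aLP of sort 2 to 0.231 without aLP of sort 3 and 2.2 without LTiP. With both genes in only 3 cells, the counts cannot show whether they are associated, and no test was run. Cells of a pool share a sort, and cells with more cDNA detect more genes, so all such values are descriptions.

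Whether Lat followed Zbtb16 could be read only where the gate left cells on both sides. In ILCP 59 of 60 Lat-detecting cells had Zbtb16, but only 7 ILCP cells lacked it. Lat was detected there in 25 of 58 cells with and 1 of 4 without Zbtb16 in sort 2. In sort 3 it was 34 of 87 and 0 of 3. In every pool cells with Zbtb16 also detected more of the other assays than cells without. In ILCP the numbers were 40.3 against 32.5 in sort 2 and 40.2 against 29.3 in sort 3. The part of this in the result was not tested. In aLP Lat was detected in 2 of 11 cells with Zbtb16 and 14.0% of those without in sort 2. In sort 3 it was 0 of 3 against 2.25%. In LTiP it was 5 of 7 against 4 of 7. The difference was positive in 4 of 5 pools and averaged 14.7 ± 15.8 points (SD), or 8.59 without ILCP of sort 3, and both genes were detected in 66 cells where independence would give 63.4.

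Lat detection had no common order with the amount of Zbtb16 in ILCP cells. In sort 2 Lat was detected in 37.9% of the cells with an earlier Zbtb16 Ct than the median and 48.3% of the rest, and in sort 3 in 46.5% and 31.8%. The sign thus differed between sorts. Among cells that detected both, the Ct values of Zbtb16 and Lat had a Spearman rho of -0.06 (n = 25) and 0.09 (n = 34). After subtraction of each cell's housekeeping Ct the rho was 0.07 and 0.37, where 66 assays had a median of 0.29. Lck was ordered in the same direction in both sorts, in 27.6% of the earlier and 6.90% of the later cells of sort 2 and in 41.9% and 15.9% in sort 3. The earlier cells of sort 3 also detected more assays (43.8 against 38.7), as did those of sort 2 by a smaller margin (41.9 against 40.7).

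**Figure D4:**
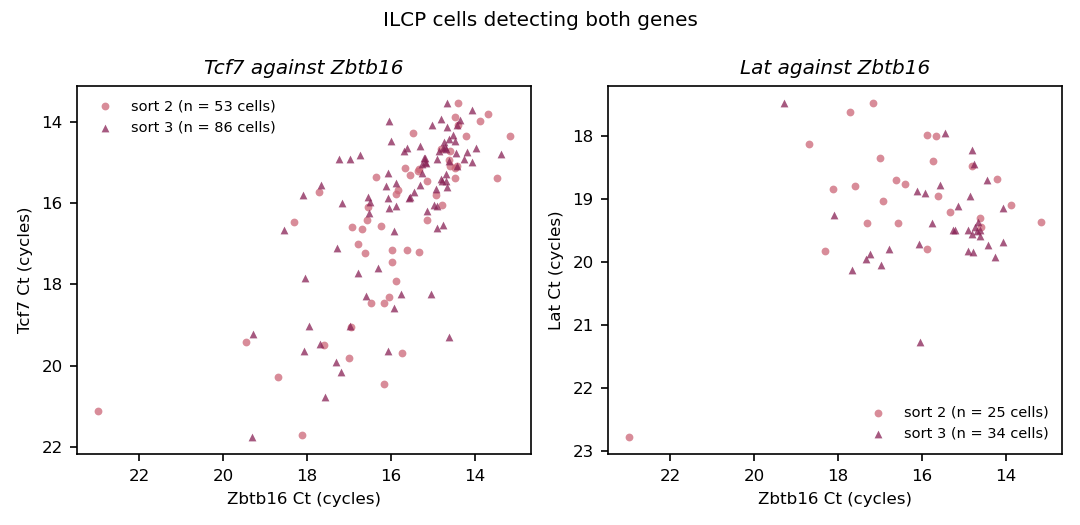
Ct of Tcf7 (left y axis) and of Lat (right y axis) against Ct of Zbtb16 (x axes), in cycles with reversed axes, for ILCP cells that detected both genes, with sort 2 as circles and sort 3 as triangles. In these Ct values, not scaled to housekeeping genes, Tcf7 follows Zbtb16 (rho 0.80 and 0.64), and Lat does not (rho -0.06 and 0.09).

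The gene closest to Zbtb16 was Tcf7, which encodes TCF-1, a factor of early T-cell and innate lymphoid precursors. Phi is a correlation of detected and not detected across the cells of a pool. By mean phi, Tcf7 (0.46), Megf10 (0.33) and Rora (0.30), the gene of the nuclear receptor RORα, ranked highest of 85 assays, whose median was 0.06. The phi of Megf10 was 0.66 in aLP sort 3, from 2 of 3 Zbtb16-detecting cells, and 0.17 and 0.16 in ILCP. In aLP sort 2, which did not enter its mean, 0 of 11 had Megf10. In aLP Tcf7 was detected in 8 of 11 cells with Zbtb16 and 20.9% of those without in sort 2. In sort 3 it was 3 of 3 and 14.6%, and in LTiP 7 of 7 and 5 of 7. Cells with Zbtb16 detected more of the other assays in every pool, as given above, and the part of this was not tested. In ILCP cells the Ct of Tcf7 followed that of Zbtb16, with a rho of 0.80 in sort 2 (n = 53 cells) and 0.64 in sort 3 (n = 86), the highest of 66 assays with a median of 0.13. After subtraction of each cell's housekeeping Ct the rho was 0.76 and 0.64, again the highest, with a median of 0.29. The Zbtb16 Ct had a rho of 0.30 and 0.13 with the housekeeping mean and -0.16 and -0.54 with the number of assays detected.

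Cxcr5 was detected more often in aLP cells with Zbtb16 than in those without, although both proteins had been gated out. In sort 2 Cxcr5 was detected in 6 of 11 aLP cells with Zbtb16 and 18.6% of those without. In sort 3 it was 2 of 3 and 5.62%. In ILCP it was detected in 44.8% of cells with and 0 of 7 without Zbtb16, and in LTiP in 7 of 7 and 5 of 7. The direction was the same in all 5 pools, by 28.6 to 61 points.

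By phi, Cd4 detection was closest to that of Cxcr5, the receptor for the chemokine CXCL13 and the other gate of the sort. Mean phi ranked Cxcr5 (0.34), Spon2 (0.24) and Ccr8 (0.22) highest, against a median of 0.02. In aLP 8 of 9 Cd4-detecting cells had Cxcr5 (88.9%) against 13 of 137 others (9.49%), with 4 of 4 in sort 2 and 4 of 5 in sort 3. In ILCP it was 9 of 16 against 41.2% of the others, with a difference of 32.7 points in sort 2 and -2.93 in sort 3. In LTiP, gated on CXCR5, it was 6 of 6 against 6 of 8. Both were detected in 23 cells where independence would give 13.2. In aLP, Cd4-detecting cells also detected more of the other assays (39.2 against 31.5 in sort 2 and 35.6 against 27.7 in sort 3), and the part of this was not tested. Cd4 and Lck, both genes of T cells, were found together in 0 of 16 Cd4-detecting ILCP cells, while 36 of the others (26.5%) had Lck, and in 3 of 9 aLP cells with Cd4 against 14 of 137 without.

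**Figure D5:**
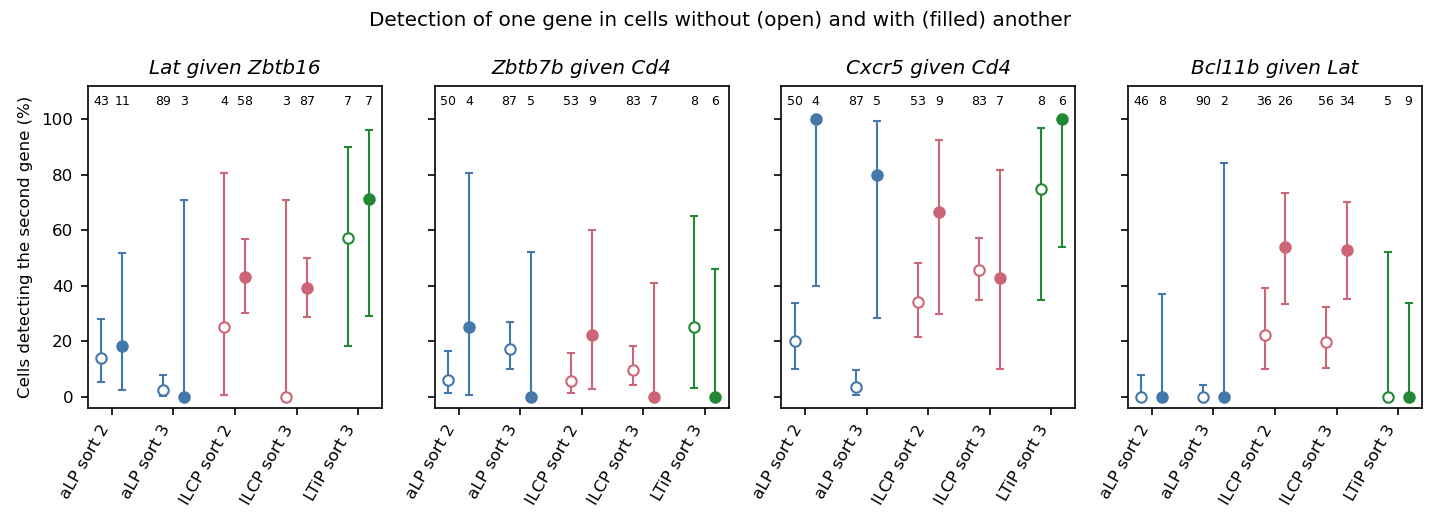
Percent of cells detecting the second gene (y axis) among cells without (open) and with (filled) the first gene, for 4 pairs in the 5 pools (x axis), with exact 95% binomial intervals and cell numbers above. Lat exceeds its open point with Zbtb16 in 4 of 5 pools with wide intervals, Zbtb7b has no common direction with Cd4, Cxcr5 is high with Cd4 in both aLP pools, and Bcl11b is higher with Lat in both ILCP pools.

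Within ILCP, Lat was found with Bcl11b, which encodes a zinc finger factor of T-cell commitment and of group 2 innate lymphoid cells. Bcl11b was detected in 14 of 26 ILCP cells with Lat and 22.2% of those without in sort 2, and in 18 of 34 and 19.6% in sort 3, differences of 31.6 and 33.3 points. No aLP or LTiP cell detected Bcl11b, so in LTiP all 9 Lat-detecting cells lacked it. The mean phi of Bcl11b with Lat was 0.34 over 2 pools, followed by Il18r1 (0.30), a receptor gene for interleukin-18, and Ltb (0.29), the gene of lymphotoxin β, where 83 assays had a median of 0.05. Il18r1 was detected more often with Lat in all 5 pools, in 73.1% against 52.8% of ILCP cells of sort 2, 44.1% against 23.2% of sort 3 and 7 of 9 against 1 of 5 LTiP cells. Ltb was found in 5 of 9 LTiP cells with Lat and 0 of 5 without. Lat and Lck, which act in one pathway in T cells, had no common direction: Lck was detected in 30.8% of Lat-detecting and 8.33% of other ILCP cells in sort 2, and in 20.6% and 32.1% in sort 3.

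Zbtb7b and Lat were seldom found together. Both were detected in 3 cells where independence would give 7.33, and the difference was negative in each of the 4 aLP and ILCP pools, with a mean of -12.1 ± 12.2 points (SD), or -6.90 without ILCP of sort 3. None of the 19 aLP cells with Zbtb7b had Lat, but 15 of them were in sort 3, where 2 of 92 cells detected Lat. Independent detection would give 0.593 aLP cells with both genes in sort 2 and 0.326 in sort 3. Their absence in aLP therefore cannot show whether the genes are associated. Tox encodes an HMG-box factor of T-cell and innate lymphoid development. In aLP of sort 2 it was detected in 3 of 4 cells with Zbtb7b and 47 of 50 without. In aLP of sort 3 it was 6 of 15 and 46 of 77. The aLP cells with Zbtb7b detected 30 and 26.5 other assays and those without 32.3 and 28.3. The 2 LTiP cells with Zbtb7b had none of the other 3 genes. The assays closest to Zbtb7b by mean phi were Eomes (0.23), Tnfrsf9 (0.16) and Igf2 (0.15), against a median of -0.03, each over the 2 ILCP pools with few cells: Eomes was shared by 3 cells in all.

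Of 29 T-cell genes listed, 17 were on the panel and tested between ILCP and aLP. Of these 2 were called higher in ILCP, Tcf7 (5.62 ± 0.58 SE; limma, adjusted p = 0.0138) and Ets1 (3.6 ± 0.38; adjusted p = 0.0138), an Ets-family factor of lymphocytes, and the other 15 did not pass. Of all tested assays 5.49% were called higher. Without the ILCP pool of sort 2 or of sort 3 none of the 91 was called (limma, 19 and 23 at an unadjusted p under 0.05). The 17 had a median difference of 0.75, with 14 above 0, where all 91 tested assays had a median of 0.54 and 72 above 0. Lck, with Lat part of this list, gave 0.45 ± 0.32 (adjusted p = 0.396) and was detected in 0 of 14 LTiP cells (exact interval up to 23.2%). In sort 3 the list's share of detecting cells in LTiP differed from aLP by a median of 7.14 points (0 for all assays) and from ILCP by -10.0 points (-5.24 for all assays). Lat and Cd4, both higher in LTiP than in ILCP cells by share, were thus among 6 of 17 T-cell genes above ILCP, with 11 below.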

How the data were processed

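The authors deposited raw Ct values of 100 assays, on a cycle scale and with no normalization, per the file headers. Per the labels' protocols, single cells were reverse transcribed, preamplified for 22 cycles and run on a Biomark HD chip with assays described as TaqMan or Solaris; SYBR Green stands in another label. The fluorescence threshold and the rule for missing values are not given in the sources used here. According to the series text there were 339 sorted cells and 299 after housekeeping filtering; the table used here holds 313. Cells with fewer than 5 assays or none of Actb, Gapdh, Hprt and Tbp below Ct 24 were left out, which removed 1 aLP cell, leaving 312.

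No column was unmapped. Pools were compared with limma 3.58.1 (R 4.3.3; lmFit and eBayes, Benjamini-Hochberg over all assays tested, threshold 0.05). Levels were tested for assays that 5% or more of the cells of 1 aLP or ILCP pool detected, and Ct values for assays with at least 3 detecting cells in each. Nothing says that the pools are free of technical differences, so p-values measure the spread between them. The fit was tested on simulated data. LTiP has 1 pool and was compared by shares and Ct values without a test. A limma fit over all 5 pools was an alternative. Shares carry exact Clopper-Pearson intervals and differences Newcombe intervals, at 95%. A neighbour of a gene was 1 of the 3 assays with the highest mean phi over at least 2 pools with at least 3 cells on each side. Rank correlations of Ct needed at least 10 cells.

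The genes, lists and pairs were chosen with earlier results of these data known. Named are the 4 genes, their neighbours, fixed partner genes and list members. Added after the values were seen were the pairs with Lck, the detection tables of neighbours and of Tox and Cxcr5 summed over pools, the rank correlations, the restriction to cells numbered 97 or higher in both sorts, the fit without Itga2b-detecting cells, the induction list without Cd4 and Cxcr5, and the 4 motifs. Alternatives were other limits of detection (22, 26, 28 or none) and changes of scaling, filters, averaging, block, weights and pools. Start-site sequences are RefSeq's for GRCm38.p6. All 4 genes matched its gene table by symbol. The values of 1 assay of the lymphoid tissue induction list are not reported here, though it stayed in the fits and list counts.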

Additional observations from a re-analysis of the deposited data

How the results depend on the processing

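In the ILCP and aLP comparison of levels, the 4 genes kept their direction under every alternative that could be fitted. With every entered Ct counted as detected Lat passed the threshold (difference 6.74, limma adjusted p = 0.0423). Over the settings that left no pool out its limma adjusted p ran from 0.0423 to 0.261. As each pool was left out, Lat ranged from 1.26 to 1.86. Zbtb16 ranged from 6.65 to 7.55 and lost its call without ILCP replicate 2 (7.35, adjusted p = 0.112) or 3 (6.86, adjusted p = 0.110). Instead of 6 called assays there were 12 with a limit of 26, 11 with 28, 16 with every entered Ct, 11 with the 20% assay filter, 13 from shares, 15 from linear averages and 0 to 20 with 1 pool left out (limma, 19 and 23 at an unadjusted p under 0.05 where none was called). The cause was not tested. The median of all assays was 0.39 after housekeeping scaling and 0.50 after scaling to each cell's median, against 0.54.

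For Ct in detecting cells, 1 assay was called, against 0 with at least 5 cells per pool, 3 with a limit of 26, 0 with every entered Ct (limma, 13 at an unadjusted p under 0.05), 0 relative to housekeeping genes (4 unadjusted) and 0 to 2 with 1 pool left out (3 to 16 unadjusted). Zbtb16 was -3.15 with every entered Ct (adjusted p = 0.0515), -1.34 relative to housekeeping genes, and -2.75 to -2.06 with 1 pool left out. Differences that did not pass turned sign for Cd4 relative to housekeeping genes (0.13) and for Zbtb7b without aLP replicate 2 (-0.31) or ILCP replicate 3 (-0.02), the range over pools left out being -0.31 to 0.77. At least 5 cells per pool left the 3 genes unfitted here, as did the 20% filter Zbtb7b and Cd4 above, since too few cells detected them. The LTiP minus aLP share of Zbtb7b was -19.0 points among cells numbered 1 to 96. Other LTiP share differences stayed within the Newcombe interval of their main value. Within it, Lat against ILCP fell from 26.5 to 6.39 points among cells numbered 1 to 96. All pair means moved by less than 1 SD over pools, which for Cd4 with Zbtb7b included a change of sign.

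Deviations of same-numbered pools from their group mean had a correlation of -0.047 over the levels of 91 assays. With 2 pools per group both sorts give this same value, so it cannot show whether single assays, or Ct values, differ by sort. With the sort as a replicate block 2 assays were called for level and 6 for Ct, and Lat gave 1.56 (adjusted p = 0.107). A limma fit over 5 pools lends the lone LTiP pool the spread of the others, so it cannot test LTiP and only level differences are given. The level in LTiP was above that in aLP by 2.32 for Cd4 and 2.67 for Lat, and above that in ILCP for both genes. With the replicate block the LTiP differences of Cd4 and Lat were 2.43 and 2.91 against aLP and 2.21 and 1.35 against ILCP. Counts of 2 to 19 detecting cells per group limit what the pairs of Zbtb7b and Cd4 can show.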
